A study of Mus musculus with 12 samples.

Results

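The solute carriers are the membrane proteins that move small molecules across the plasma membrane and the membranes of organelles, and their transcripts were examined here in mouse urothelium, the epithelium that lines the bladder. Members were chosen by symbol and level: every gene whose symbol begins with Slc and a digit, apart from Slc6a8, was kept if its raw count averaged at least 20 over the 12 libraries. Among 23337 genes counted, 356 carry such a symbol, 181 of them met the rule and 175 did not. Slc25a22 and Slc25a47 sat just inside the rule, each with a mean count of 20.7, and 4 members share that mean. Slc9a5 with 19.8 and Slc44a4 with 18.7 sat just outside it. Of the 181 members 5 carry a carrier's name without being carriers: Slc9a3r1 and Slc9a3r2 are scaffold proteins that bind a sodium-proton exchanger, Slc4a1ap is an adaptor protein, Slc7a6os lies opposite Slc7a6, and Slc2a4rg-ps is a pseudogene. The other members were sorted by substrate into 12 classes, with a remainder left without a class because the substrate is unknown or uncertain.

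Solute carriers work by alternating access: a binding site opens to one side of the membrane, takes up its substrate, and then opens to the other. Some move a substrate down its gradient, and others couple it to sodium, protons, chloride or a second solute and so move it uphill. In the urothelium they matter in a particular way, because the umbrella cells at the surface face urine rich in urea, acid, potassium and waste ions, while the cells below are fed from the blood on their other side.

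The study asked what inactivating Stag2 does to urothelial transcripts. Stag2 lies on the X chromosome and codes for one of the subunits of cohesin, a ring-shaped complex that forms chromatin loops and keeps sister chromatids together. There were 4 groups of 3 mice with 1 library each: Stag2-WT and Stag2-KO, each at 1 week and at 1 month after treatment began. All 12 animals, WT included, were fed TMX, taken here to be tamoxifen, in the diet for a week, so both genotypes carry that treatment. The labels name neither the Cre line that acts on Stag2 nor the age or sex of the mice. RNA came from peeled urothelium, and the libraries read the 3′ ends of polyadenylated transcripts, so a gene's count does not grow with its length. Sequencing batch 1 is the 6 libraries of 1 week, batch 2 is replicates 1 and 2 of each genotype at 1 month, and batch 3 is replicate 3 of each, so time and batch cannot be told apart.

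Total counts per library ranged from 5580961 to 9497088, and solute carriers took between 0.562% and 0.735% of them. Stag2 itself, the check of the labels, was lower in each KO library than in every WT library of the same time, with a log2 fold change of -0.89 at 1 week and -0.88 at 1 month and edgeR adjusted p of 0.198 and 0.0507. The 16 urothelial markers were present in every library and summed to between 10908 and 31199 CPM (the count relative to a library's total, scaled by TMM). At 1 week 11 of them were lower in KO and 5 higher, with sums of 12891 to 16978 CPM in WT and 10908 to 15024 CPM in KO. At 1 month 12 were lower and 4 higher, with sums of 17091 to 31199 CPM in WT and 12453 to 18519 CPM in KO. Krt20 passed the test there (log2 fold change -1.76, edgeR adjusted p 0.00601). At 1 week all 3 KO libraries held between 6392 and 10406 counts of Xist, the transcript of the inactive X chromosome, while no WT library of that time held more than 13, so genotype and sex cannot be told apart at 1 week. At 1 month only KO replicate 3 held it, with 7764 counts. Markers of other cells also moved with genotype. Smooth muscle, fibroblast and endothelial markers summed to between 3846 and 5863 CPM in WT and between 5569 and 11029 CPM in KO at 1 week, with 13 of 14 higher in KO, and to between 10530 and 13289 CPM in WT and between 8440 and 9995 CPM in KO at 1 month, with 7 of 14 higher. Leukocyte markers summed to between 278 and 408 CPM in WT and between 367 and 622 CPM in KO at 1 week, and to between 1036 and 1468 CPM in WT and between 413 and 684 CPM in KO at 1 month, where 8 of 8 tested were lower and Csf1r, C1qa, C1qb and Cd74 passed the test. Proliferation markers summed to between 130.1 and 739 CPM in KO and between 37.6 and 47.5 CPM in WT at 1 week. None of these markers was at 0 in every library, and their part in the results on solute carriers was not tested. One KO library of 1 week, replicate 3, stood apart: it detected 174 of the 181 members where every other library detected at least 180.

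Urothelium of WT mice carried most of its solute carrier transcript in carriers of the mitochondrion and in carriers of amino acids and metals. Over the 6 WT libraries the summed level averaged 1670 CPM for 35 mitochondrial carriers, 1139 CPM for 22 carriers of amino acids and peptides, and 868 CPM for 21 carriers of zinc, iron, copper, manganese and haem. The smallest sums were 129.6 CPM for 8 carriers of carboxylates, 120.1 CPM for 4 carriers of urea, phosphate and vesicular solutes, and 100.3 CPM for 4 carriers of nucleosides. These levels chose the members and are given as a description.

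The member with the highest level was Slc25a3, which brings phosphate into the mitochondrion for ATP synthesis, at 256 ± 36.1 CPM (SD, n = 6 WT libraries of both times). Slc25a39, which is needed for mitochondrial glutathione, followed at 244 ± 127 CPM, and Slc38a2, a sodium-coupled carrier of neutral amino acids, at 242 ± 28.1 CPM. These neighbours in the order do not differ beyond their spread. Slc6a6, which takes up the osmolyte taurine, had 207 ± 106 CPM, and was set apart by time or batch: the WT libraries had 244, 351 and 297 CPM at 1 week and 98, 108 and 143 CPM at 1 month. Other leading members were set apart by time or batch as well, Slc25a39 and Slc48a1 among them, with every WT library of 1 month above every one of 1 week. Slc44a2, a choline transporter-like protein, had 190.1 ± 77.6 CPM, and Slc48a1, which exports haem from endolysosomes, had 154 ± 43.4 CPM.

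**Figure D1:**
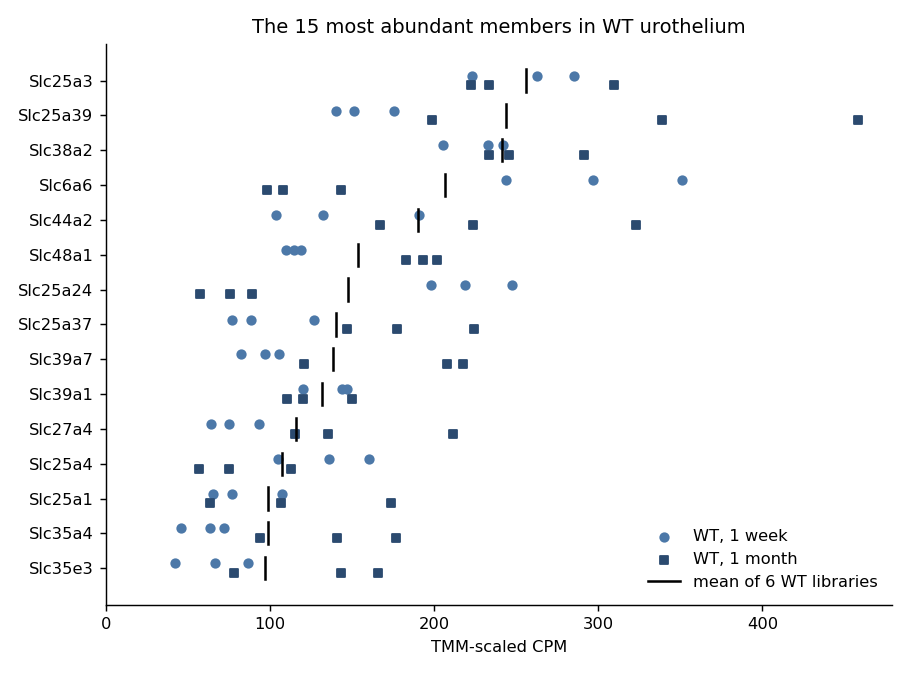
The 15 solute carriers with the highest mean level in WT urothelium, in TMM-scaled CPM on the horizontal axis, with a circle for each WT library of 1 week, a square for each of 1 month and a bar for the mean of the 6. Slc25a3 leads with a mean of 256 CPM. Slc6a6 and Slc25a24 are separated by time, with every library of 1 week above every library of 1 month. Slc25a39, Slc48a1, Slc25a37, Slc39a7, Slc27a4 and Slc35a4 are separated the other way, with every library of 1 month above every library of 1 week.

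The rest of the 15 leading members add to the same classes. Slc25a24, a carrier of ATP-magnesium and phosphate, had 148 ± 83 CPM, and Slc25a37, mitoferrin-1, which brings iron into the mitochondrion, had 139.98 ± 55.5 CPM. The zinc carriers Slc39a7, which releases zinc from the endoplasmic reticulum and Golgi, and Slc39a1, which takes it up at the cell surface, had 138 ± 58.7 CPM and 132 ± 16.8 CPM. Slc27a4, a fatty acid transport protein that also activates its substrate to acyl-CoA, had 116 ± 53.7 CPM. Slc25a4, the adenine nucleotide exchanger, had 108 ± 38.2 CPM, and Slc25a1, which exports citrate for lipid synthesis, had 98.8 ± 41.5 CPM. Slc35a4 and Slc35e3, whose substrates are uncertain, had 98.8 ± 50.4 CPM and 97 ± 47.4 CPM.

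Urothelium is known for the urea carrier Slc14a1, which lets urea cross cell membranes by facilitated diffusion. It was the leading member of its class and the 29th of the 181 by WT level. Its level was 74.4, 88.3 and 100.4 CPM in WT and 65.2, 76.3 and 43.7 CPM in KO at 1 week, and 49.3, 61.4 and 68.6 CPM in WT and 57.8, 60.1 and 48.4 CPM in KO at 1 month. The genotypes overlapped at both times, with log2 fold changes of -0.45 (SE 0.3) and -0.15 (SE 0.22) and edgeR adjusted p of 0.489 and 0.706.

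KO was compared with WT at 1 month to see what had changed after the longer interval. Of the 179 members tested 3 (1.68%) passed an adjusted p of 0.05 in edgeR's quasi-likelihood test with Benjamini-Hochberg adjustment over all genes: the sulfate carrier Slc26a2 fell, and the zinc carrier Slc30a4 and the amino acid carrier subunit Slc3a2 rose. Over all 12139 genes tested 2.22% were called (0.997% higher and 1.22% lower), so solute carriers changed at about the rate of the whole transcriptome. At an unadjusted p under 0.05 there were 18 members higher and 19 lower (20.7%), and all genes gave 21.5%, with 11.1% higher and 10.3% lower. DESeq2 called 9 of 175 members (5.14%) and 6.43% of all genes: the same 3 with Slc7a8, Slc12a7, Slc40a1, Slc43a2, Slc43a3 and Slc45a4. The median log2 fold change was 0.05 over the members and -0.01 over all genes. Slc25a22 and Slc35b3 had too few counts to be tested.

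Slc26a2, on chromosome 18, codes for the sulfate transporter that supplies sulfate for proteoglycan synthesis. Its level was 79.4, 86.2 and 48 CPM in WT and 50.5, 28.1 and 22.9 CPM in KO at 1 month. Within each batch the KO libraries were lower than the WT ones, but KO replicate 1 of batch 2 lay above WT replicate 3 of batch 3, so the groups overlapped. It fell by 1.11 on the log2 scale (SE 0.24, edgeR adjusted p 0.034), with a difference of -1.13 between the log2 means of batch 2 and -1.06 between the single libraries of batch 3. At 1 week its level was 104, 102 and 143 CPM in WT and 79.7, 88 and 163 CPM in KO, which overlapped (edgeR adjusted p 0.998).

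Slc30a4, at chr2:122681233-122702663 (GRCm38.p6, minus strand), codes for a zinc transporter that loads zinc into vesicles. Its level was 2.74, 3.85 and 9 CPM in WT and 11.7, 13.4 and 18 CPM in KO at 1 month, and every KO library lay above every WT library. It rose by 1.52 on the log2 scale (SE 0.33, edgeR adjusted p 0.0359). The log2 difference was 1.86 within batch 2 and 0.97 within batch 3. At 1 week its level was 11.4, 11.8 and 9.25 CPM in WT and 7.81, 16 and 15 CPM in KO, which overlapped. It is among the less abundant members, 138th of 181 by WT level.

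Slc3a2, at chr19:8706882-8723369 (GRCm38.p6, minus strand), codes for the heavy chain of CD98, the partner that carries several amino acid exchangers of the Slc7 family to the cell surface. Its level was 20.3, 22.2 and 157 CPM in WT and 57.2, 72.7 and 207 CPM in KO at 1 month. The libraries of batch 3 were far higher than those of batch 2 in both genotypes, so the groups overlapped, while KO lay above WT within each batch. It rose by 1.13 on the log2 scale (SE 0.26, edgeR adjusted p 0.0429), and the log2 difference was 1.59 within batch 2 but 0.4 within batch 3. At 1 week KO replicate 3 had 5.59 CPM against 86.5, 95.1 and 52.7 CPM in WT and 35.4 and 118 CPM in the other KO libraries.

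**Figure D2:**
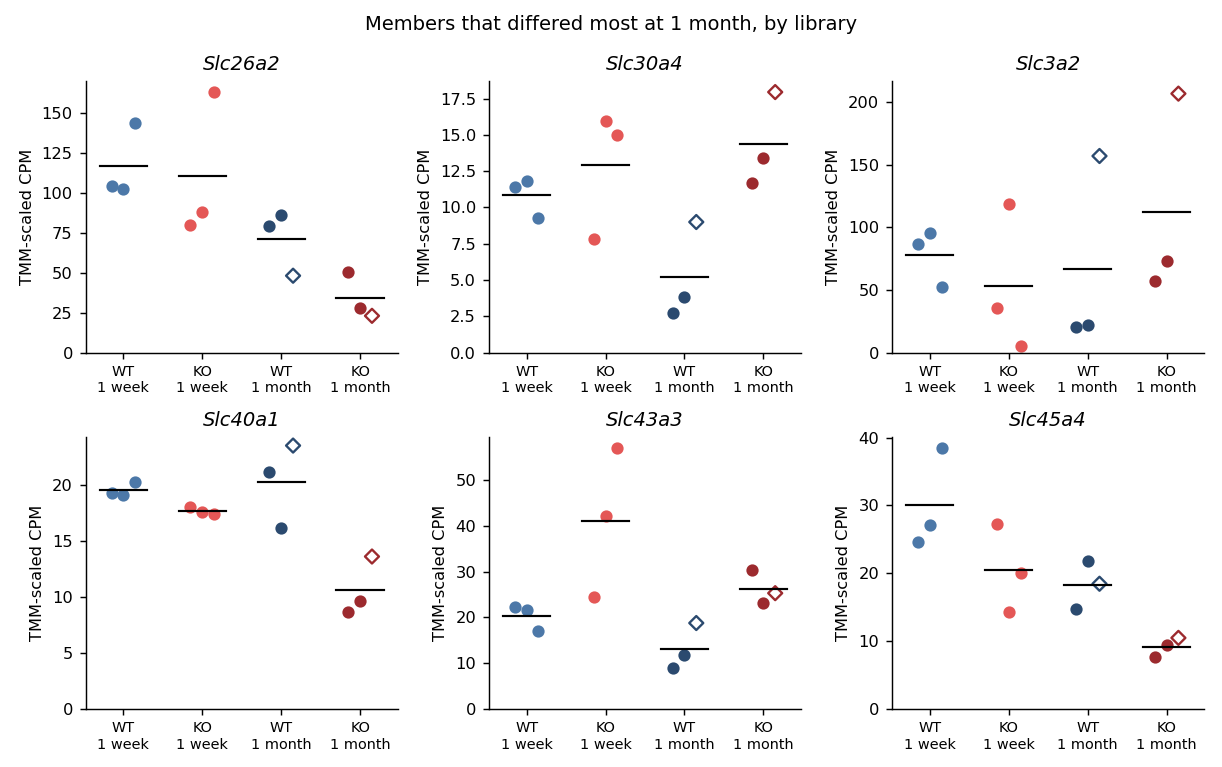
Level by library, in TMM-scaled CPM on a linear axis from 0, of the 3 solute carriers called at 1 month (Slc26a2, Slc30a4 and Slc3a2) and of 3 that came next among those whose genotypes do not overlap (Slc40a1, Slc43a3 and Slc45a4). Filled points are batches 1 and 2, open diamonds are batch 3, and bars are group means. In Slc3a2 the 2 open diamonds, at 157 and 207 CPM, lie above all other libraries of 1 month.

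All 3 calls depended on which libraries and which model entered. Without WT replicate 1, WT replicate 2 or KO replicate 2, none of the 3 passed, without KO replicate 1 only Slc26a2 did, and without WT replicate 3 or KO replicate 3 all 3 passed and 24 or 25 members were called in all, where 12.3% of all genes were called in each case. Without batch as a covariate no member was called, and none of the 3 passed with a stromal and immune marker score as a covariate (adjusted p 0.0545, 0.0722 and 0.0671), although their log2 fold changes were then larger in size, at -1.53, 1.82 and 1.44.

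The promoters of both members that rose are shown as context for these calls, and reads from 3′ ends do not measure where transcription starts. Each line gives 250 bases upstream of a RefSeq start on GRCm38.p6, 5′ to 3′ on the minus strand, Slc30a4 from chr2:122702664-122702913 and Slc3a2 from chr19:8713898-8714147. The start used for Slc3a2 lies inside the span of the gene given above, downstream of its outermost start. Capitals mark matches, on either strand, to a set of 8 short motifs.
Slc30a4: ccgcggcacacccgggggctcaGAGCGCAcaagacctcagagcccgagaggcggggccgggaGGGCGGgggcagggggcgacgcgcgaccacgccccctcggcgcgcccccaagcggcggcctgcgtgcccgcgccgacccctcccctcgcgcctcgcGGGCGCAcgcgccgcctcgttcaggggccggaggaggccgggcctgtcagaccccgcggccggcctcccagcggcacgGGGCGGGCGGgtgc
Slc3a2: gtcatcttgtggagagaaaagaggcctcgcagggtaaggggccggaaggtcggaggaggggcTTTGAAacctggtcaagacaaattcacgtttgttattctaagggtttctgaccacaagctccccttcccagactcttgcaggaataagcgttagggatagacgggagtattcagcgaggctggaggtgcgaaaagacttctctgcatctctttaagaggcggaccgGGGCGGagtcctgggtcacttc
The spellings searched were those of the cell cycle element CHR (TTTGAA), E2F sites (TTGGCGC and TTCGCGC), the amino acid response element CARE (TGATGNAA), the metal response element MRE (TGCACNC and TGCGCNC), the E-box (CACGTG) and the GC box (GGGCGG). Slc30a4 held the G form of the MRE at 228 and at 92 bases before the start, both on the opposite strand, and GC boxes at 188, 14 and 10 bases before it, the last 2 of which overlap. Slc3a2 held the CHR at 188 bases and a GC box at 22 bases before the start. Among 32851 mouse promoter windows of this length, 12.5% held the G form of the MRE, 16% the CHR and 32.7% a GC box. The 184 windows of the 135 members with an entry held the GC box in 60.9% and had a median GC content of 60.8%, against 52.4% over all windows. A match of letters is a description and shows no binding.

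Genotypes did not overlap at 1 month in 23 of 179 members (12.8%), Slc30a4 among them, 13 higher and 10 lower in KO, where the share over all genes was 13.3%, with 6.88% higher and 6.45% lower. Slc40a1, ferroportin, the exporter of iron from cells, was lowest in p among the lower ones. Its level was 21.1, 16.1 and 23.5 CPM in WT and 8.6, 9.64 and 13.6 CPM in KO. The fitted change was -0.99 on the log2 scale (SE 0.26) and missed the threshold (edgeR adjusted p 0.0637). DESeq2 called it (adjusted p 0.0428). The leukocyte markers named above were lower in the same KO libraries, and a fit that adjusts for that stromal and immune marker score gave -1.06 (edgeR adjusted p 0.13). In bulk tissue, fewer cells of a type and less RNA per cell cannot be told apart.

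Slc45a4, classed with the sugar carriers, had 14.7, 21.8 and 18.4 CPM in WT and 7.6, 9.47 and 10.5 CPM in KO (log2 fold change -1.05, edgeR adjusted p 0.0676). Slc43a2, a carrier of large neutral amino acids, had 145, 93.3 and 102 CPM in WT and 62.6, 80.8 and 63.4 CPM in KO (-0.76, adjusted p 0.0816). Slc35e1, without a known substrate, had 37.4, 36.7 and 29.4 CPM in WT and 22.1, 20.4 and 24.4 CPM in KO (-0.67, adjusted p 0.124). Slc43a3, a carrier of purine nucleobases, stood on the higher side with 9, 11.7 and 18.8 CPM in WT and 30.3, 23 and 25.3 CPM in KO (log2 fold change 0.99, edgeR adjusted p 0.0797). The phosphate carrier Slc25a3 had 233, 222 and 309 CPM in WT and 364, 394 and 404 CPM in KO (0.57, adjusted p 0.135), and Slc25a24 had 57.1, 75.3 and 89.2 CPM and 106, 136 and 104 CPM (0.61, adjusted p 0.149). In none of these did the genotypes overlap, and none passed the adjusted threshold in edgeR, while DESeq2 called Slc43a2, Slc43a3 and Slc45a4 (adjusted p 0.0411, 0.0421 and 0.0443).

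KO was compared with WT at 1 week to see the early state. No member of the 180 tested passed an adjusted p of 0.05 in edgeR's quasi-likelihood test, where 8 of all 12754 genes did (0.0627%), and the lowest adjusted p among members was 0.110, that of the taurine carrier Slc6a6. At an unadjusted p under 0.05 there were 24 members (13.3%), 11 higher and 13 lower, against 15.5% of all genes, 10.5% higher and 5.03% lower. DESeq2 called 5 of 181 members (2.76%) where it called 6.1% of all genes: Slc6a6, Slc47a1, Slc5a9 and Slc46a3, all lower in KO, and Slc9a9, higher. The median log2 fold change was -0.04 over members and 0.02 over all genes. Slc5a11 had too few counts to be tested at this time.

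Genotypes did not overlap at 1 week in 45 members (25%), 15 higher in KO (8.33%) and 30 lower (16.7%). Over all genes these shares were 26.5%, 12.4% and 14.1%. Without KO replicate 3 the count was 66 members (36.7%) where all genes gave 37.4%, with 41 members lower (22.8%) where all genes gave 18.6%. With that library left out edgeR called 5 members, or 2.78%, where it called 2.45% of all genes.

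Slc6a6, the taurine carrier, had 244, 351 and 297 CPM in WT and 121, 98.8 and 67.2 CPM in KO at 1 week. All 3 WT libraries lay at least at 244 CPM and no KO library above 121 CPM. On the log2 scale KO was -1.58 from WT (SE 0.32, adjusted p 0.11 by edgeR). At 1 month, which is another batch, both genotypes were near the KO libraries of 1 week, with 98, 108 and 143 CPM in WT and 124, 82.8 and 89.9 CPM in KO.

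Slc47a1, which exchanges organic cations for protons and exports drugs such as metformin, had 37.1, 45.6 and 37.5 CPM in WT and 17, 16.2 and 8.09 CPM in KO at 1 week, a fitted log2 difference of -1.49 (SE 0.36, adjusted p 0.137 by edgeR). At 1 month the genotypes overlapped, at 35.6, 36.5 and 52.9 CPM and 50.2, 39.7 and 44.6 CPM. Slc5a9, a sodium-coupled carrier of mannose and related sugars, had 11.8, 10.5 and 11.3 CPM in WT and 2.56, 1.08 and 0 CPM in KO at 1 week (log2 fold change -3.1, SE 0.85, edgeR adjusted p 0.171). It was low in all libraries of 1 month, with no value above 3.85 CPM. Slc6a6, Slc47a1, Slc5a9 and Slc22a17 were among the members that passed the threshold without KO replicate 3.

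**Figure D3:**
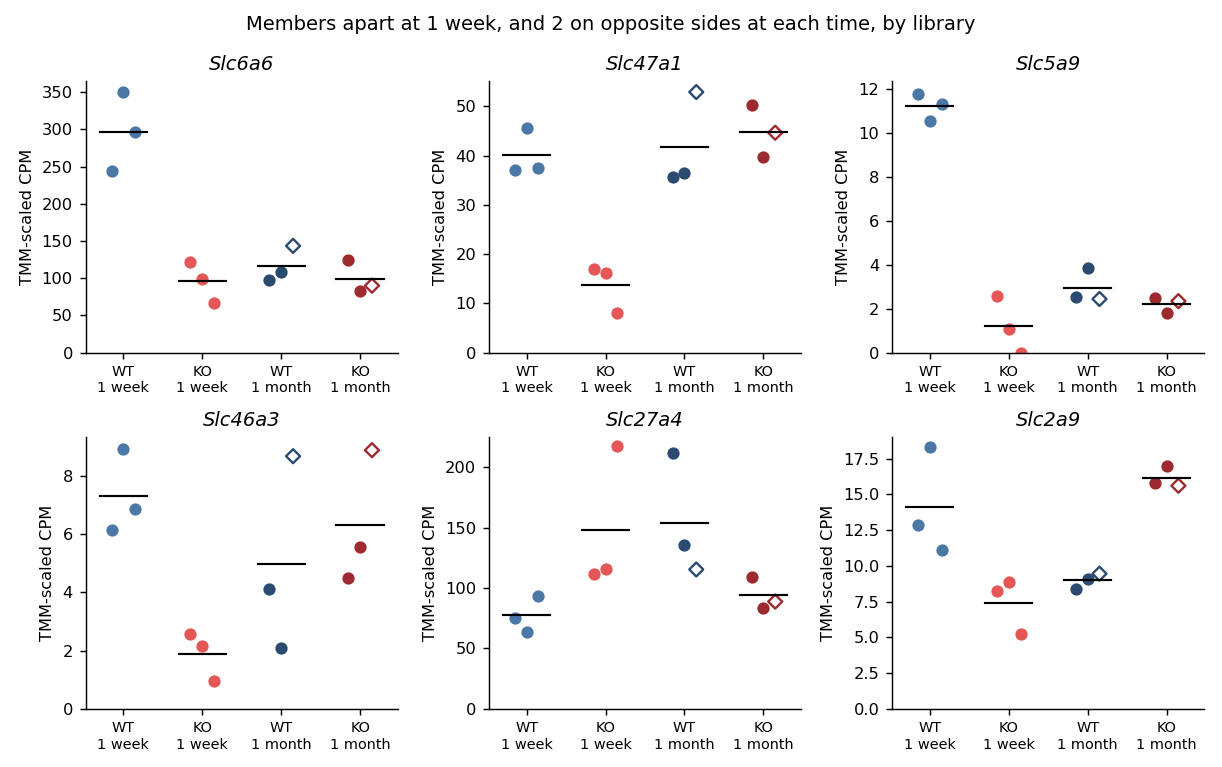
Level by library, in TMM-scaled CPM on a linear axis from 0, of 4 solute carriers lower in every KO library of 1 week (Slc6a6, Slc47a1, Slc5a9 and Slc46a3) and of 2 whose genotypes lay on opposite sides at 1 week and 1 month (Slc27a4 and Slc2a9). Filled points are batches 1 and 2, open diamonds are batch 3, and bars are group means. In Slc6a6 the WT libraries of 1 week lie between 244 and 351 CPM and all other libraries at or below 143 CPM.

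The potassium-chloride cotransporters Slc12a7 and Slc12a4, which let salt leave swollen cells, differed in direction at 1 week, and neither passed the threshold. Slc12a7 had 114, 145 and 58.7 CPM in WT and 37.7, 60.2 and 27.2 CPM in KO, with overlap (log2 fold change -1.3, edgeR adjusted p 0.244). Slc12a4 went the other way, with 12, 14.4 and 7.84 CPM in WT and 22.6, 24.2 and 26.4 CPM in KO and no overlap (1.15, adjusted p 0.198). Slc12a2, the cotransporter that loads sodium, potassium and chloride into cells, had 20.6, 18.2 and 24.5 CPM in WT and 28.7, 40.02 and 112 CPM in KO (1.6, adjusted p 0.235), and KO replicate 3 was by far its highest library, without which the log2 fold change was 0.71.

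Others that stood apart at 1 week had low levels. Slc9a9, a proton exchanger of endosomes, had 6.75, 4.59 and 7.73 CPM in WT and 12, 16 and 17.9 CPM in KO (log2 fold change 1.34, edgeR adjusted p 0.171). Slc39a14, a carrier of zinc, iron and manganese, had 1.47, 2.52 and 2.18 CPM in WT and 5.52, 3.45 and 10.6 CPM in KO (1.71, adjusted p 0.219). Slc46a3, a carrier of the lysosome, had 6.14, 8.94 and 6.86 CPM in WT and 2.56, 2.16 and 0.963 CPM in KO (-1.87, adjusted p 0.149). The abundant Slc25a39 had 151, 140.1 and 175 CPM in WT and 258, 237 and 247 CPM in KO (0.73, adjusted p 0.225). None of these overlapped between genotypes and none passed in edgeR's test, while DESeq2 called Slc9a9 and Slc46a3 (adjusted p 0.0316 and 0.0124). Without KO replicate 3 the log2 fold change of Slc39a14 was 1.09.

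**Figure D4:**
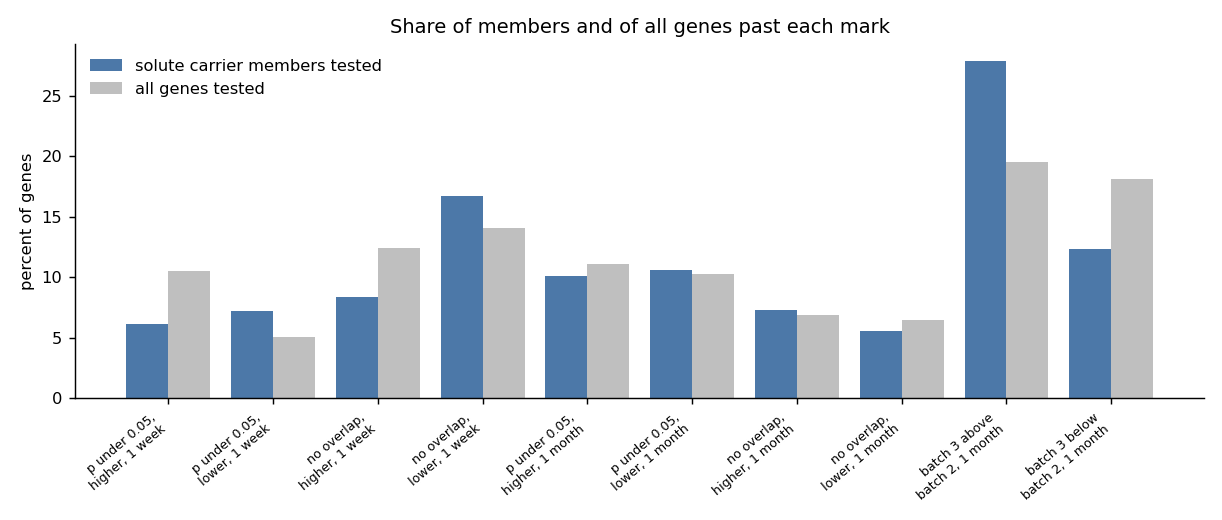
Share in percent, on an axis from 0, of the solute carriers tested (blue) and of all genes tested (grey) that passed an unadjusted p of 0.05, had genotypes without overlap, or had both libraries of batch 3 above or below all 4 of batch 2. At 1 month the blue and grey bars of the genotype comparisons differ little, and the largest gap is in the batch comparison, at 27.9% of members and 19.5% of all genes.

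By substrate class, amino acid carriers summed lower in KO at 1 week: the sum was 1075, 1240 and 1111 CPM in the WT libraries and 901, 958 and 522 CPM in the KO libraries, which did not overlap. Of the 22 members 12 were lower and 10 higher, with a median of -0.18, so the lower sum rests on a few abundant carriers. Slc6a6, described above, had the largest difference in CPM of the class. Slc1a5, the glutamine carrier, had 107, 126 and 68 CPM in WT and 50.9, 42.3 and 6.16 CPM in KO (log2 fold change -1.56, edgeR adjusted p 0.329). Slc38a2, the leading member of the class, overlapped, at 205, 242 and 233 CPM and 218, 292 and 86.7 CPM.

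At 1 month the class sums overlapped, at 1082, 1017 and 1309 CPM in WT and 999, 1086 and 1252 CPM in KO. Of the light chains that pair with Slc3a2, Slc7a6 had 29.5, 30.8 and 34.3 CPM in WT and 25.9, 26.3 and 15.9 CPM in KO, a difference of -0.55 on the log2 scale (edgeR adjusted p 0.224), and Slc7a8 had 0.391, 2.1 and 18.1 CPM and 8.73, 7.19 and 24.5 CPM (1.58, adjusted p 0.119). In WT replicates 1 and 2 Slc7a8 had only 2 and 12 counts, the first under a floor of 3 counts, so its fold change is loosely set. Slc7a7 and Slc7a11 had log2 fold changes of 0.66 and 0.68 (edgeR adjusted p 0.385 and 0.568). Among these only the heavy chain passed in edgeR's test, while DESeq2 called Slc7a8 as well.

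Of 21 carriers of zinc, iron, copper, manganese and haem, 13 were higher and 8 lower at 1 month, with a median of 0.07. Among the zinc exporters and vesicle loaders of the Slc30 family, Slc30a4 passed at 1 month, whereas Slc30a1, the exporter of the plasma membrane, had 39.9, 39 and 34.8 CPM in WT and 42.5, 45.1 and 44.5 CPM in KO (log2 fold change 0.17, edgeR adjusted p 0.651). Slc30a5, Slc30a6, Slc30a7 and Slc30a9 had log2 fold changes of 0.81, 0.74, 0.24 and -0.07, none past the threshold. The importers of the Slc39 family went both ways: Slc39a10 had 73.7, 84.4 and 53.4 CPM in WT and 40.02, 52.9 and 50.3 CPM in KO without overlap (-0.59, adjusted p 0.16), and Slc39a13 had 9.19, 8.74 and 16.6 CPM and 13.8, 16.3 and 32.5 CPM (0.78, adjusted p 0.109). At 1 week 9 members of the class were higher and 12 lower, with a median of -0.05, but without KO replicate 3 the split was 13 and 8, with a median of 0.10.

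The 8 carriers of carboxylates, the Slc16 family of lactate and related carriers, were all lower in KO at 1 month, with a median of -0.34, where 49.6% of all genes tested were higher. Their sum was 123, 132 and 123 CPM in WT and 102, 104 and 84.9 CPM in KO. None of the 8 passed the adjusted threshold. Slc16a3, the lactate exporter, had 26.6, 26.6 and 11.3 CPM in WT and 17.5, 17.1 and 7.18 CPM in KO (log2 fold change -0.68, edgeR adjusted p 0.133). In batch 2 alone 6 of the 8 were lower and 2 higher. At 1 week 6 were higher and 2 lower, with a median of 0.64, but without KO replicate 3 the split was 4 and 4.

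Carriers of acid, base and anions were higher in KO at 1 week in 10 of 12 members, with a median of 0.35, where 51.5% of all genes tested were higher. Without KO replicate 3 the split was 6 and 6. The bicarbonate carriers Slc4a4, Slc4a7 and Slc4a3, which set cell pH, had log2 fold changes of 0.72, 0.97 and 1.33, none past the adjusted threshold, and in each KO replicate 3 was the highest library. Without that library the values were 0.38, 0.54 and 0.44. The other bicarbonate carriers of the family, Slc4a2 and Slc4a8, had -0.09 and 0.07. At 1 month 5 were higher and 7 lower, Slc26a2 among them.

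**Figure D5:**
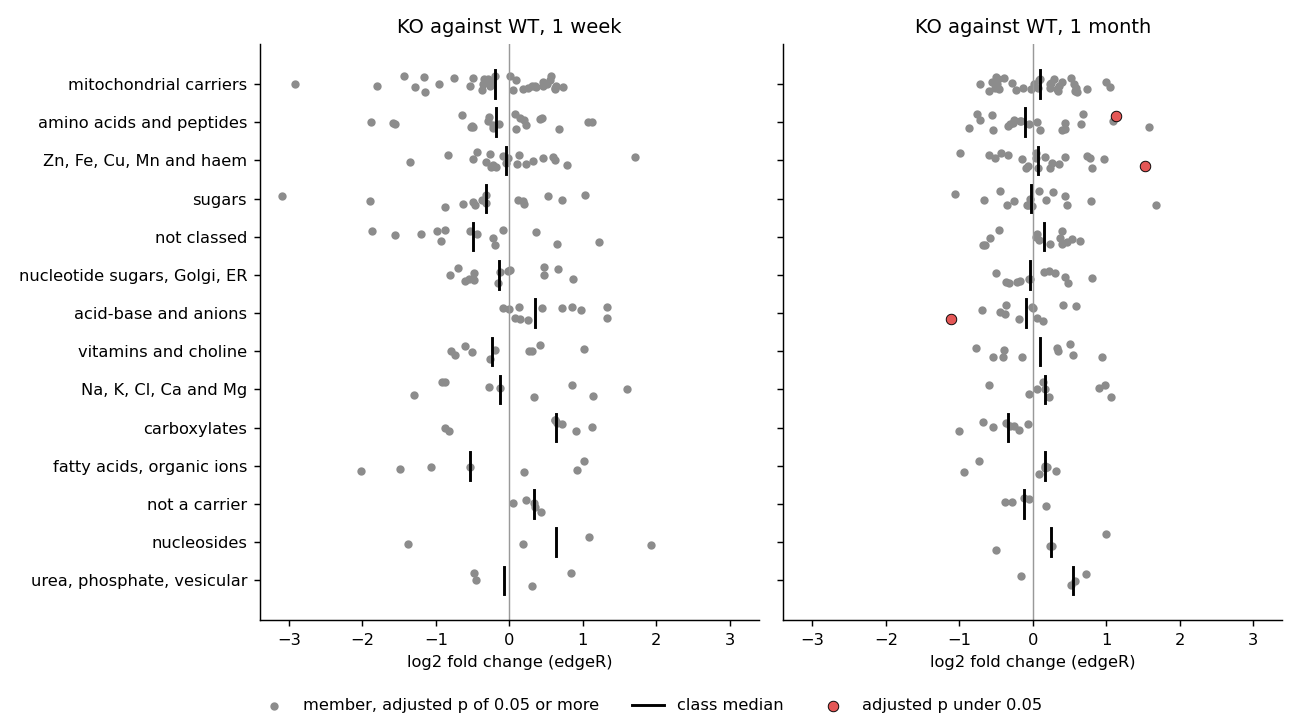
Fitted log2 fold change of KO against WT for each solute carrier tested, at 1 week (left) and 1 month (right), by substrate class. Grey points did not pass the adjusted threshold, red points did, and bars are class medians. All 8 carboxylate carriers lie below 0 at 1 month, and the red points are Slc3a2, Slc30a4 and Slc26a2.

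Sugar carriers summed to 203, 212 and 232 CPM in WT and 192, 173 and 153 CPM in KO at 1 week, without overlap, with 6 of 15 tested higher and 9 lower (median -0.32). The main facilitative glucose carrier Slc2a1 had 20.9, 24.8 and 24.9 CPM in WT and 12.3, 26.3 and 15.4 CPM in KO, which overlapped (log2 fold change -0.32, edgeR adjusted p 0.684). Slc50a1, the leading member, had 31.8, 34.7 and 31.1 CPM and 25.7, 21.8 and 13.5 CPM (-0.63, adjusted p 0.39). At 1 month the sums overlapped, at 220.4, 228 and 193 CPM in WT and 239, 205 and 205 CPM in KO.

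Mitochondrial carriers, the largest class, were split almost evenly, with 17 of 35 higher and 18 lower at 1 week (median -0.20) and 20 of 34 higher and 14 lower at 1 month (median 0.09, and -0.01 in batch 2 alone). Carriers of nucleotide sugars and other substrates of the Golgi and endoplasmic reticulum had medians of -0.14 at 1 week and -0.04 at 1 month, and vitamin and choline carriers -0.23 and 0.10. The 14 members without a class had 11 lower at 1 week, with a median of -0.49 and sums of 462, 449 and 497 CPM in WT and 371, 298 and 323 CPM in KO. Among them Slc22a17, a receptor that binds lipocalin-2, had 79.9, 89.7 and 82.6 CPM in WT and 42.1, 35.8 and 4.62 CPM in KO (log2 fold change -1.56, edgeR adjusted p 0.323). At 1 month 10 of the 14 were higher, with a median of 0.16.

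The nucleoside class shows how much KO replicate 3 of 1 week could weigh. Slc29a3, a nucleoside carrier of lysosomes, had 42.7, 32.1 and 54.3 CPM in WT and 77.6, 40.6 and 343 CPM in KO, so that this library alone held 343 CPM, and the class sum was 403 CPM there against 93.0 to 124 CPM in the other libraries of 1 week. Over all members that library was the highest of the 6 in 56 (31.1%, all genes 31.9%) and the lowest in 80 (44.4%, all genes 40.8%).

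The effect of genotype was compared between the times as an interaction in all 12 libraries. No member of 181 and none of 13122 genes passed an adjusted p of 0.05 (0% called), and the lowest adjusted p among members was 0.111. At an unadjusted p under 0.05 there were 37 members (20.4%) and 19.9% of all genes, and DESeq2 called 11 members (6.08%) where it called 5.87% of all genes, with none of the 3 called at 1 month among them. A call at 1 month and none at 1 week is therefore not shown to be a difference between the times.

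Slc12a7 had the lowest p, with a difference of 2.33 (SE 0.61) between its log2 fold changes. Its level at 1 month was 14.1, 15.7 and 156 CPM in WT and 38.3, 51.1 and 164 CPM in KO, with the 2 libraries of batch 3 far above the rest. The fatty acid carrier Slc27a4 had 75.2, 63.8 and 93.5 CPM in WT and 112, 115 and 217 CPM in KO at 1 week, but 212, 135 and 115 CPM and 109, 83.6 and 88.7 CPM at 1 month, without overlap at either time and on opposite sides (difference -1.74, SE 0.47, edgeR adjusted p 0.111). Its log2 fold change at 1 week was 1.01, and 0.55 without KO replicate 3. Slc2a9, a carrier of urate, did the reverse. It had 12.9, 18.3 and 11.1 CPM in WT and 8.21, 8.85 and 5.2 CPM in KO at 1 week, and 8.41, 9.09 and 9.45 CPM and 15.8, 17 and 15.6 CPM at 1 month (difference 1.68, SE 0.45, adjusted p 0.111).

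Slc8a1, the sodium-calcium exchanger, was the third member on opposite sides, with 9.94, 11 and 12.4 CPM in WT and 14.1, 13.8 and 29.3 CPM in KO at 1 week and 15.1, 15.7 and 13.1 CPM and 8.73, 12.2 and 9.21 CPM at 1 month. These 3 make 1.69% of the 178 members tested at both times, and 1.8% of all genes did the same. Another 3 members (1.69%, all genes 1.9%) lay without overlap on the same side at both times: Slc43a3 and Slc25a12 higher in KO, and Slc40a1 lower. Slc43a3 had 22.3, 21.6 and 17.1 CPM in WT and 24.4, 42.1 and 57 CPM in KO at 1 week, and its fitted log2 difference of 1.08 (adjusted p 0.252 by edgeR) stood beside 0.99 at 1 month, and was 0.71 without KO replicate 3. Slc25a12, the mitochondrial carrier of aspartate and glutamate, had 0.63 and 0.29 (adjusted p 0.34 and 0.475). For Slc40a1 the gap at 1 week was small, with 19.3, 19 and 20.2 CPM in WT and 18, 17.6 and 17.3 CPM in KO.

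The batches of 1 month set levels apart more widely than genotype in part of the members. In 50 of 179 (27.9%) both libraries of batch 3 lay above all 4 of batch 2, where 19.5% of all genes did so, and in 22 (12.3%) both lay below, where 18.1% of all genes did so. Slc12a7 differed by 3.37 on the log2 scale between batch 3 and batch 2 in WT and by 1.89 in KO. For Slc3a2 these differences were 2.87 and 1.68, for the amino acid exchanger Slc7a8 they were 3.87 and 1.6, and for the GDP-fucose carrier Slc35c1 they were 3.09 and 2.19. In all of these the gap between batches was larger in WT than in KO. The WT libraries of batch 2 held only 2 and 12 counts of Slc7a8 and 6 and 11 of Slc35c1, so their gaps in WT are loosely set. Batch 3 is a single animal of each genotype, so batch and animal cannot be told apart there. No WT library of 1 month held more than 11 counts of Xist. KO replicate 3 held 7764, and no KO library of batch 2 held more than 28. Sex therefore cannot be told apart from batch in KO, nor from genotype within batch 3.

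On the X chromosome with Stag2 lie 6 members, among them Slc10a3, Slc25a14, Slc25a5 and Slc35a2. At 1 week, where all KO libraries carry Xist, 3 of the 6 were higher and 3 lower in KO, 0 had genotypes without overlap and 0 passed an unadjusted p of 0.05 in edgeR's test. Over all genes tested 51.5% were higher, 26.5% had genotypes without overlap and 15.5% passed that p. With only 6 members, a share of 0 cannot be told apart from these. Slc25a5, an adenine nucleotide exchanger close in sequence to Slc25a4, had 98.8, 155 and 62.5 CPM in WT and 26.8, 137 and 53 CPM in KO, and reads could be split between such near copies.

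Carriers and partners that go by other names were read from a list of 46 genes, among them the organic anion carriers named Slco, the uncoupling proteins and the chaperone Bsg of the lactate carriers, and 42 of the 46 were matched by symbol. At 1 week 32 were tested, 15 higher and 17 lower with a median of -0.01, and at 1 month 31 were tested, 15 higher and 16 lower with a median of -0.07. None passed at either time in edgeR's test, while 4 higher and 2 lower at 1 week, and 1 higher and 2 lower at 1 month, had an unadjusted p under 0.05. A list of 29 water channels, ion channels and pumps gave 15 higher and 7 lower of 22 tested at 1 week (median 0.18) and 8 higher and 11 lower of 19 at 1 month (median -0.13). None of these passed the adjusted threshold, and 2 higher and 2 lower at 1 week, and 2 higher and 3 lower at 1 month, had an unadjusted p under 0.05. For both lists the background is the share of all genes tested with an unadjusted p under 0.05 in edgeR's test. It was 15.5% at 1 week (10.5% higher and 5.03% lower) and 21.5% at 1 month (11.1% higher and 10.3% lower). The small counts of the lists are not read as a result beside it.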

How the data were processed

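The deposited values are raw counts per gene, whole numbers in 1 table for each time, with 12 columns in all; per the submitters' processing notes Bowtie, TopHat, HTSeq and DESeq2 were used with build mm10, and versions and annotation are not given in the sources used here. The authors' libraries were made with a QuantSeq forward kit, whose reads keep the sense strand, per the labels' protocols. Groups came from the labels; replicate numbers follow accession order and pair no animals. The labels do not say whether litters or cages differed, so the p-values rest on taking the animals as independent. They set the difference between genotypes against the spread between these animals. The title and the library name of WT replicate 3 at 1 month carry different animal numbers, and its column was matched through the library name.

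Members, classes, lists and motifs were chosen with earlier results of these data known. Each time was fitted with edgeR 4.0.16 (R 4.3.3): quasi-likelihood test, robust dispersions, TMM, the default filter on low counts by group, batch as a covariate at 1 month, two-sided, Benjamini-Hochberg adjustment over all genes and a threshold of 0.05. The interaction was fitted over all 12 libraries with batch. The standard error is the absolute log2 fold change over the square root of F, and log2 CPM values have a prior count of 2 added. The fits passed 180, 179 and 181 of the 181 members through the filter. A floor of 3 counts is between 0.324 and 0.587 CPM and covers counting error only. The genes named in the text are the 15 with the highest WT level, those called, the 5 with the smallest p in each direction among those without overlap at each time, and the first of each class; a few that this rule names are not reported here, and others were chosen after their values were seen, within their class. Coordinates and promoters are RefSeq's on GRCm38.p6, which is mm10, with all 181 members matched by symbol or synonym. No pair of replicates agreed within sampling noise. The edgeR fits of each time and of the interaction were tested on simulated counts. Alternatives were DESeq2 1.42.0, other scaling and filters, other covariates and leaving out each library.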

Additional observations from a re-analysis of the deposited data

How the results depend on the processing

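No paired analysis was possible because the replicate numbers follow accession order and the labels pair no animals across groups. No member followed singly turned its direction under the 14 alternatives at 1 week or the 17 at 1 month. All but Slc26a2 and Slc3a2 were picked from these data because their genotypes do not overlap. Slc26a2 and Slc3a2 were picked for a low adjusted p in edgeR's test. Their kept directions were thus nearly fixed by the choice, and no stability is read from them. Class medians were taken, after the data were seen, in 2 of them, and 4 turned: without KO replicate 3 the median at 1 week went from -0.05 to 0.10 for metals and from -0.13 to 0.15 for sodium, potassium and related ions, and in batch 2 alone the median at 1 month went from 0.09 to -0.01 for mitochondrial carriers and from -0.11 to 0.01 for amino acids. Counts of members called are given with the share of all genes called in brackets. At 1 week, 0 in the main analysis, the count was 5 with DESeq2 (6.1%), 5 with all 12 libraries in 1 fit (4.21%) and between 0 and 5 with a library left out, the 5 without KO replicate 3 (2.45%). At 1 month, where 3 were called (2.22%), the count was 9 with DESeq2 (6.43%), 6 with scaling by library size (4.62%), 13 without a filter on low counts (7.09%), 1 (Slc25a1) with a stromal and immune score (1.3%), 0 without the batch covariate (0%), 23 in batch 2 alone (12.2%), 21 with the level of Xist as a covariate (11.5%) and 0 with all 12 libraries in 1 fit (0%). It was between 0 and 25 with a library left out. Leaving out WT replicate 3 or KO replicate 3 of 1 month leaves 1 library in batch 3, which then adds nothing to the comparison. Slc26a2 passed in 11 of the 17 alternatives, Slc30a4 in 10 and Slc3a2 in 9, with log2 fold changes between -1.53 and -0.90, 1.3 and 1.87, and 0.71 and 1.57. The interaction, with 0 called, gave 11 with DESeq2 (5.87%), 1 (Slc12a7) without a filter (0.7%) and between 0 and 3 with a library left out. The count of members whose genotypes do not overlap, an alternative added after the data were seen, was 45 at 1 week and between 49 and 82 with a library left out, and 23 at 1 month and between 28 and 92, since fewer libraries overlap less. Of the single members followed, 149 comparisons at 1 month kept their side of the threshold, 34 came to pass and 21 no longer passed; at 1 week 126 kept it and 14 came to pass. The cause of these shifts was not tested. Levels of the 15 leading members in WT moved by less than their SD under other scaling. Depth limits the members with few counts, such as Slc25a22 and Slc35b3, which could not be tested at 1 month.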
